A study of Mus musculus with 30 samples.

Results

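The genes whose symbol starts with Kcn encode the subunits of potassium channels, and they were examined in heart and in white fat from male mice of the strain C57BL/6J. All protein-coding genes with such a symbol were taken except 1, which left 93 of the 36558 gene IDs measured. By role these are 30 voltage-gated pore subunits, 17 accessory subunits, 14 inward rectifiers, 14 tandem-pore leak channels, 10 silent voltage-gated subunits and 8 pores activated by calcium or sodium. The mice had received an adeno-associated virus vector of serotype AAV8 that encoded F11, the gene of coagulation factor XI, or green fluorescent protein (GFP). All of them, those with GFP included, were kept for 7 weeks on a high-fat diet (HFD) with l-NAME, which blocks nitric oxide synthesis, and tissue was taken when they were 15 weeks old. The libraries analysed here comprise 7 from F11 hearts, 6 from GFP hearts, 8 from F11 adipose tissue and 8 from GFP adipose tissue, named below by the numbers in their labels (L1, L140 and so on). Of 7 labelled GFP heart libraries, 1 was not analysed here. The labels do not say which white fat depot was used, nor whether libraries came from separate mice, and p-values rest on the spread between libraries, part of which may be technical. No untreated mice and no mice on ordinary food are among the groups, so every comparison is made within the disease model.

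Potassium channels let potassium leave the cell, which holds the resting membrane potential and ends the action potential. In cardiac muscle of the mouse, a fast transient outward current and several delayed rectifier currents repolarise the cell, inward rectifiers hold it at rest, and ATP-sensitive channels link its excitability to metabolism. In white adipose tissue, potassium channels are known from adipocytes, from vessels and from macrophages, where they set the driving force for calcium entry.

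In units of 1000000 estimated counts, heart libraries held 28.1 to 33.02 with F11 and 25.8 to 30.6 with GFP, and adipose libraries 16.8 to 26.3 with F11 and 15.95 to 22.5 with GFP. Levels are given as CPM (counts per 1000000) after scaling by the trimmed mean of M values (TMM), and 3 counts in a library corresponded to 0.0846 to 0.170 CPM. Genes of the mitochondrial genome took 31.6 to 34.6% of heart counts and 3.89 to 11.1% of adipose counts. Some adipose libraries held transcripts of other tissues. The sum of 10 cardiomyocyte markers was 6628 CPM in the GFP adipose library L140, which is 10.01% of the median of GFP hearts, against 24.7 to 134.4 CPM in the other adipose libraries. Markers of epididymis and testis reached 3632 CPM in the F11 adipose library L142 and at most 13.2 CPM in the other adipose libraries. The sum of 8 hepatocyte markers was 3934.5 CPM in L136 and 1089 in L137 (GFP adipose), and 3672 in L145 and 1926 in L146 (F11 adipose). It was 9.94 to 401 CPM in the other adipose libraries. Among hearts it was 245 CPM in the GFP heart library L2 and 2.85 to 17.0 CPM in the others. A value without 1 library is given where leaving it out moved the fold change of a named member by over 1.5 times or changed its call. Transcripts of F11 were low in both groups of hearts, at 0 to 0.0904 CPM with F11 and 0 to 0.504 CPM with GFP. The highest GFP value lay above the level of 3 counts. These transcripts gave no check of the heart labels. In adipose tissue F11 ranged from 0.382 to 11.9 CPM (median 4.29) with the F11 vector and from 0 to 3.46 CPM (median 0.354) with GFP. Whether the hepatocyte transcripts of some adipose libraries and of the heart library L2 added to these F11 levels was not tested.

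The promoters of 3 members described below are shown because factors known to act on potassium channel genes in mouse heart have simple recognition letters. Kcnip2 was among the members with the largest excess in heart, and KLF15 is known in mouse heart to act on it. Kcnj2 had 1 of the 7 lowest p-values for F11 against GFP in heart, without passing the threshold (edgeR adjusted p = 0.391). Transcripts of the clock factors CLOCK and BMAL1 fell in that comparison. Kcnj15 had the highest level per length in GFP adipose tissue. Each line holds the 250 bases before the start of the gene, 5′ to 3′ on the strand of the gene, from RefSeq on GRCm38.p6, with capitals on CACCC or its reverse complement GGGTG (the core bound by KLF factors) in Kcnip2 and Kcnj15 and on CACGTG (the E-box of CLOCK and BMAL1) in Kcnj2.
Kcnip2 chr19:45816064-45816313 (− strand): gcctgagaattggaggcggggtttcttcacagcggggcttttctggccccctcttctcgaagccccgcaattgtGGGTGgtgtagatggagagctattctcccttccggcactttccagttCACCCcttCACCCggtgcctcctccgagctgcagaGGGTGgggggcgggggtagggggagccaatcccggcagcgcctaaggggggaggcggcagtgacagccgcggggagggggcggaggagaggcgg
Kcnj2 chr11:111065914-111066163 (+ strand): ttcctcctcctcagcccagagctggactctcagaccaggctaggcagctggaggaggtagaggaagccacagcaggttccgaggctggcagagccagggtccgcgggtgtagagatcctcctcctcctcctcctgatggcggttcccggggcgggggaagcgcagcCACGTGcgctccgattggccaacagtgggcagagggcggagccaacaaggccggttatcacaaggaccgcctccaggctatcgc
Kcnj15 chr16:95257308-95257557 (+ strand): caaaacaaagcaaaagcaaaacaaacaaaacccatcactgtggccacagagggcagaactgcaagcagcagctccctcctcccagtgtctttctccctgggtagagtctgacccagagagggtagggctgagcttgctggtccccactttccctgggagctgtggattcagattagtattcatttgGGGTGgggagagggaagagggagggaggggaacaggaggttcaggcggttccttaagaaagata
The Kcnip2 stretch had 66.8% G and C and 4 KLF cores, lying 176, 129, 121 and 94 bases before the start. The Kcnj2 stretch had 65.6% G and C and 1 E-box 84 bases before the start. It also held the letters of the KLF core, which are left in lower case there. The Kcnj15 stretch was poorer in G and C, at 53.2%, and had 1 KLF core 64 bases before the start. Both strands were searched, and CACGTG reads the same on both. RefSeq promoters were matched for 68 of the 93 members. A KLF core lay in 75.0% of these and in 51.3% of all 27018 promoters of the same length, and an E-box in 5.88% and 6.05%. Members' promoters had a median of 58.8% G and C against 52.0% over all promoters, and the letters of the KLF core are themselves rich in them. The letters TTATGNAA, the core of the D-box bound by DBP, TEF and HLF, were found in 0 of the 68 and in 3.23% of all promoters, and TATAAA in 2.94% and 13.0%. These counts describe letters and not binding.

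The family divided into genes measured mainly in heart, genes measured mainly in adipose tissue and genes close to silence in both. A group mean of at least 1 CPM was found for 39 members in heart and for 35 in adipose tissue, 42 members stayed under 1 CPM in all 4 groups, and 2 had no count in any library. Levels of different genes were compared per kilobase (kb) of exon. Summed over a class, inward rectifiers reached 126 CPM per kb in F11 hearts, 129 in GFP hearts, 20.3 in F11 adipose tissue and 23.5 in GFP adipose tissue. Tandem-pore channels summed to 103 and 102 CPM per kb in F11 and GFP hearts, against 17.8 and 17.1 in F11 and GFP adipose tissue. Voltage-gated pores summed to 69.2, 66.1, 18.8 and 17.4 CPM per kb in the same order of groups. Silent subunits, which form no channel alone, reached 55.9 and 55.5 CPM per kb in F11 and GFP hearts, of which Kcng2 gave 51.5 and 50.3, and 9.38 CPM per kb in each group of adipose tissue, of which Kcns3 gave 9.14 with F11 and 8.94 with GFP. Pores activated by calcium or sodium were the class with the smallest contrast, at 6.12 and 5.60 CPM per kb in F11 and GFP hearts against 4.48 and 5.12 in F11 and GFP adipose tissue.

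**Figure D1:**
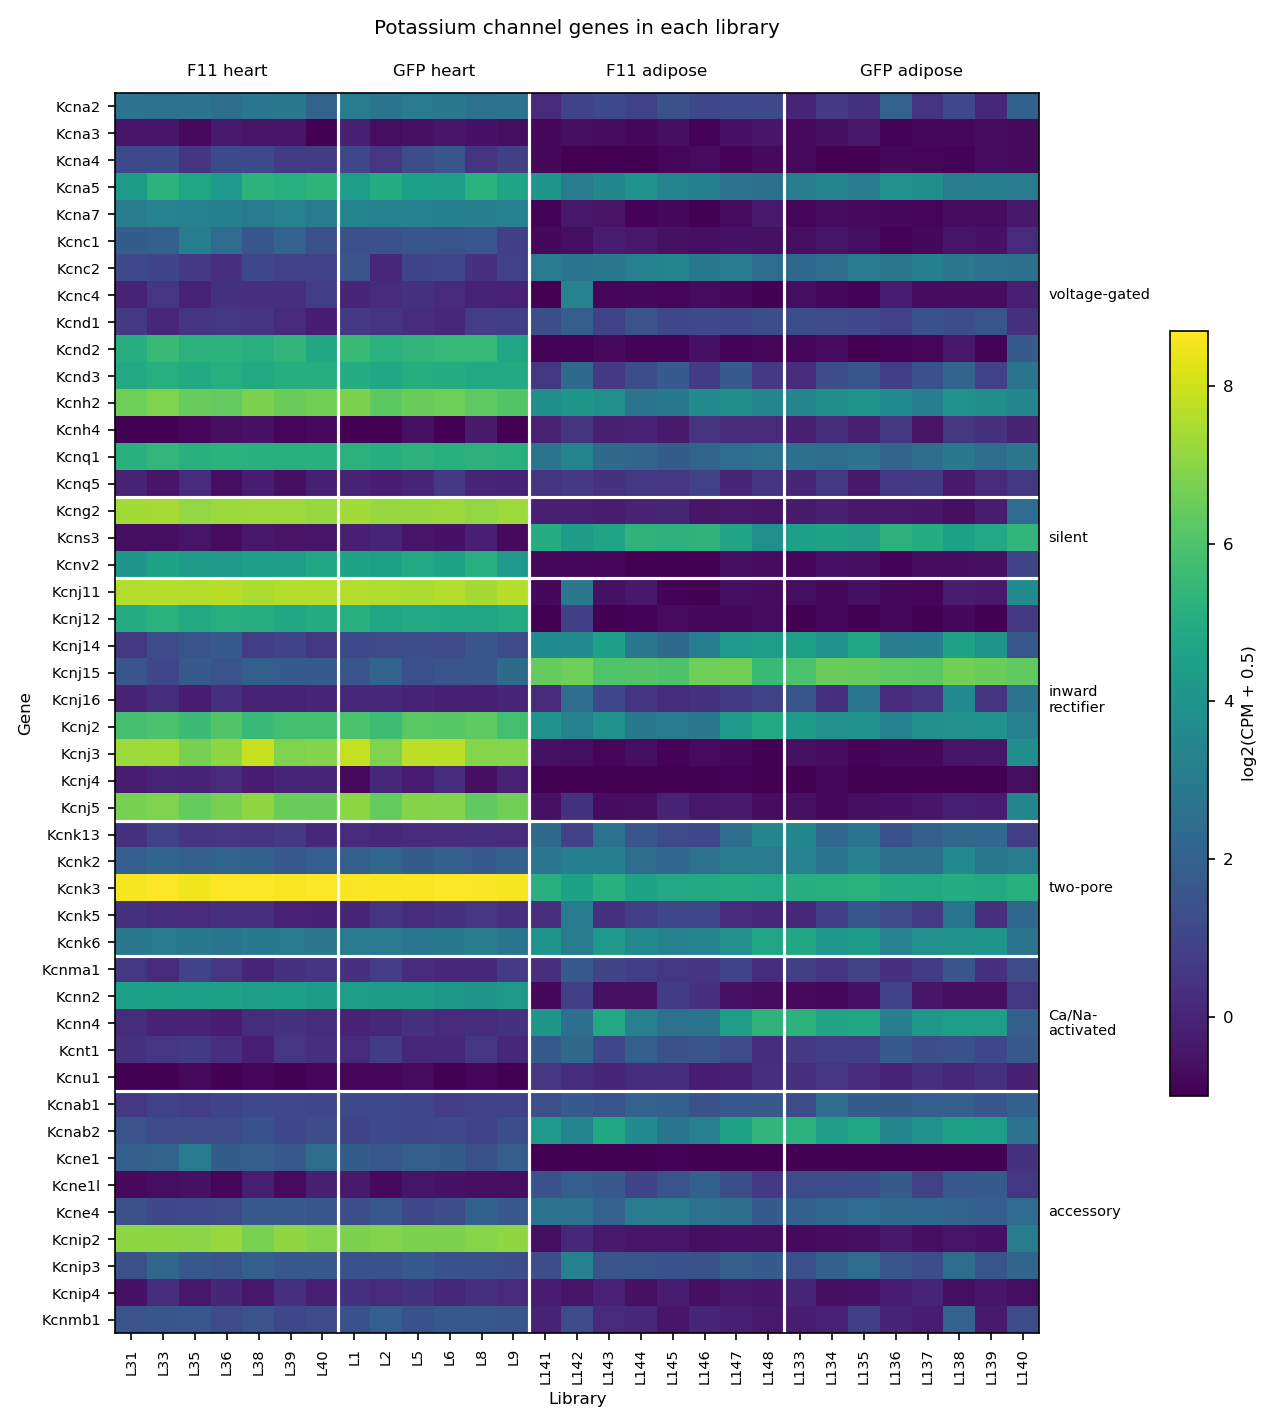
Level of the 46 named potassium channel genes, as log2(CPM + 0.5), in each of the 29 libraries, with F11 hearts, GFP hearts, F11 adipose tissue and GFP adipose tissue from left to right and genes grouped by class. Heart and adipose libraries form separate blocks, L140 shows the heart genes weakly within adipose tissue, and no block separates F11 from GFP libraries.

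In GFP hearts the 10 highest members per length were Kcnk3 (99.0 CPM per kb), Kcng2 (50.3), Kcnj11 (50.3), Kcnip2 (33.9), Kcnj3 (32.1), Kcnj5 (22.4), Kcnh2 (17.8), Kcnj2 (12), Kcnj12 (10.5) and Kcna5 (9.18). In GFP adipose tissue the highest included Kcnj15 (13.0 CPM per kb), Kcns3 (8.94), Kcnk3 (8.13), Kcnj14 (5.68), Kcnn4 (3.92), Kcnk6 (3.83), Kcnab2 (3.59) and Kcna5 (3.34). Kcnk3 and Kcna5 stood among the 10 highest in both tissues. With the length of the longest transcript in place of all exons, 9 of the 10 stayed in the list of either tissue.

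The comparison of heart with adipose tissue was made separately in the GFP and in the F11 libraries, with 61 members passing the filter on low counts. In the GFP libraries 31 members were higher and 20 lower in heart at an adjusted p under 0.05, against a background of 36.8% of all genes tested that were higher and 43.4% that were lower. In the F11 libraries, which share no library with the GFP contrast but share its estimate of the spread, 31 were higher and 23 lower, against a background of 36.6% and 45%. With a change of at least 2-fold as a further condition, 29 were higher and 17 lower in the GFP libraries (background 18.7% and 25.5%) and 29 and 20 in the F11 libraries (18.7% and 26.5%). The median log2 fold change of the members was 0.95 in the GFP libraries and 0.64 in the F11 libraries, and over all genes tested it was −0.11 and −0.13. Without L140 the GFP contrast had 33 higher and 20 lower members of 62 tested (background 38.7% and 41.5%). A scaling by total counts, with no TMM, moved the median of all genes by −0.93 and −0.99 on the log2 scale, and 26 members were then higher and 25 lower in the GFP libraries, and 26 higher and 27 lower in the F11 libraries. Over all genes that scaling gave 2541 higher and 12048 lower in the GFP libraries, where TMM gave 6081 and 7176, and 2444 higher and 12442 lower in the F11 libraries, where TMM gave 6046 and 7434. These are bulk samples, so fewer cells of a type and less RNA per cell cannot be told apart, and any batch in which a tissue was processed cannot be told apart from the tissue.

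By class in the GFP libraries, 13 of the 23 voltage-gated pores tested were higher in heart and 4 lower. Of inward rectifiers 5 were higher and 3 lower of 9, of tandem-pore channels 2 and 4 of 7, of pores activated by calcium or sodium 4 and 3 of 8, of silent subunits 2 and 1 of 3, and of accessory subunits 5 and 5 of 11. Among the Kcna genes, the Shaker-type voltage-gated pores, 6 of 6 tested were higher in heart. The background for these counts is 36.8% higher and 43.4% lower over all genes tested. Heart and adipose libraries did not overlap for 43 of the 61 members tested in the GFP libraries, or 70.5%, and for 42 of 61 in the F11 libraries, or 68.9%, against a background of 58.5% and 58.8% of all genes tested. All hearts lay above all adipose libraries for 29 of these in the GFP libraries (28.8% of all genes) and for 27 in the F11 libraries (27.5%). The 32 members not tested did not exceed 2.88 CPM in any library.

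**Figure D2:**
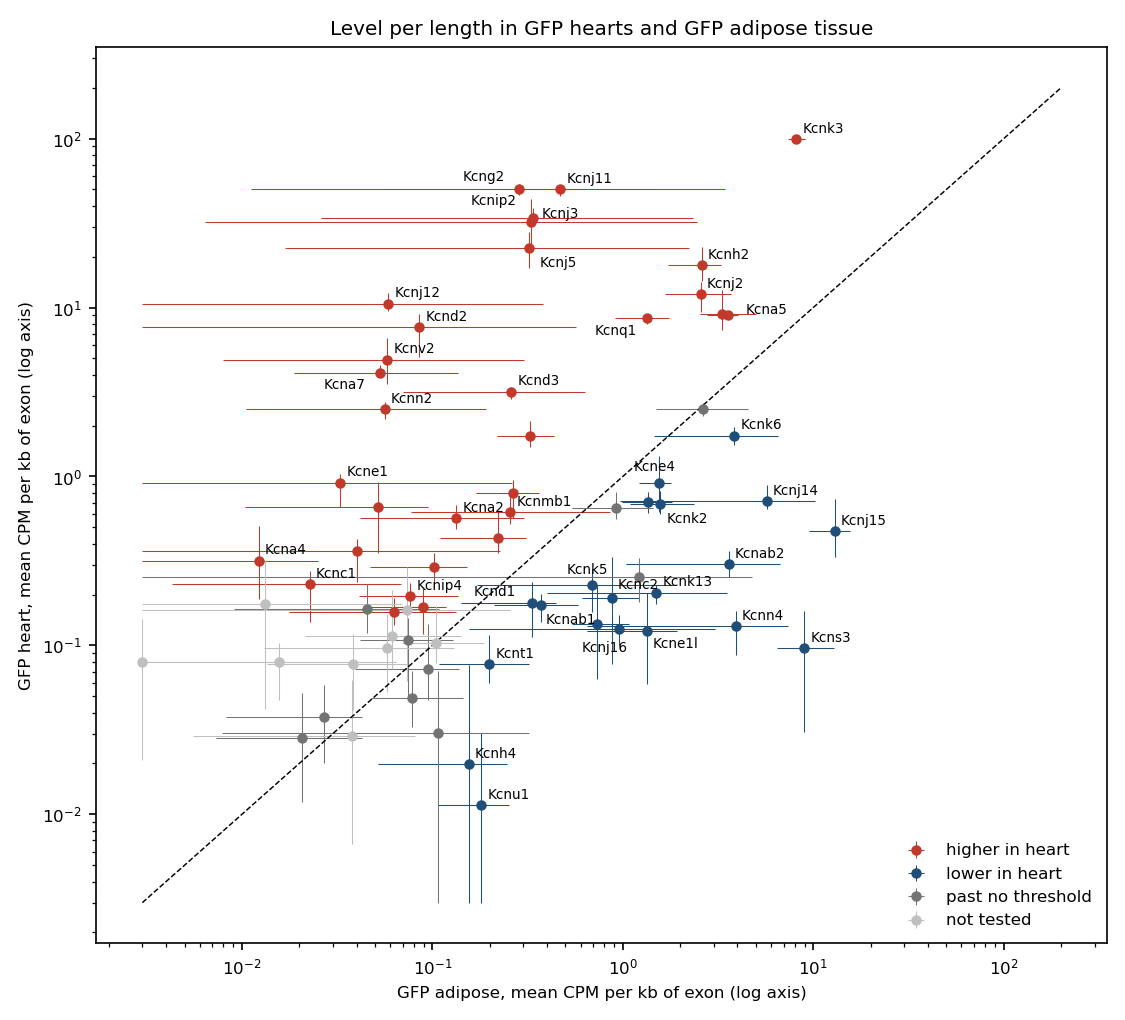
Mean level per kb of exon in GFP hearts (vertical, log axis) against GFP adipose tissue (horizontal, log axis) for members with at least 0.2 CPM in either group, lines span the lowest and highest library, values under 0.003 are drawn at 0.003 and the dashed line marks equal levels. Most cardiac genes lie far above the dashed line with long horizontal lines whose upper end is L140, while Kcnj15, Kcns3 and Kcnn4 lie far below it.

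The genes of the transient outward current were among those with the largest excess in heart. Kcnd2, the pore subunit of the fast transient outward current in mouse ventricle, was measured at 27.1 to 47.7 CPM (median 37.0) in F11 hearts and 26.1 to 47.4 CPM (median 42.0) in GFP hearts. Its level in adipose tissue was 0.0282 to 0.193 CPM (median 0.0378) in F11 adipose tissue, and 0 to 0.280 CPM (median 0.0410) in the GFP adipose libraries other than L140, which held 2.94 CPM. Every heart library lay above every adipose library. The log2 fold change of heart over adipose tissue was 6.63 (SE 0.57 and adjusted p = 2.10e-11) in the GFP libraries, 8.90 (SE 0.31 and adjusted p = 4.99e-20) without L140, and 9.12 (SE 0.69 and adjusted p = 1.18e-12) in the F11 libraries. Kcnip2, the calcium-binding accessory subunit that brings this pore to the membrane, was measured at 106.8 to 147.5 CPM (median 133.4) in F11 hearts and 109.1 to 135.8 CPM (median 114.6) in GFP hearts. In adipose tissue Kcnip2 was at 0.145 to 0.562 CPM (median 0.207) in F11 adipose tissue, and 0.0900 to 0.285 CPM (median 0.164) in the GFP adipose libraries other than L140, which held 8.11 CPM. For Kcnip2 the log2 fold change was 6.78 (SE 0.62 and adjusted p = 9.36e-11) in the GFP libraries, 9.39 without L140, and 8.97 (SE 0.71 and adjusted p = 3.80e-12) in the F11 libraries. Hearts and adipose libraries did not overlap for Kcnip2 either. Per length Kcnip2 stood at 33.9 CPM per kb in GFP hearts and Kcnd2 at 7.66.

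The other pore of the rapid transient current, Kcnd3, was present in both tissues. It reached 29.0 to 34.3 CPM (median 32.1) in F11 hearts and 27.6 to 32.3 CPM (median 30.9) in GFP hearts. In adipose tissue Kcnd3 was at 0.976 to 4.42 CPM (median 1.54) with F11 and 0.675 to 6.07 CPM (median 2.11) with GFP. L140 was the highest GFP adipose library for Kcnd3, every heart lay above it, and the log2 fold change below was 3.98 without it. Kcnd3 was higher in heart by a log2 fold change of 3.62 (SE 0.35 and adjusted p = 2.82e-10) in the GFP and 3.91 (SE 0.35 and adjusted p = 4.62e-11) in the F11 libraries. Kcna4, the pore of the slowly recovering transient current, was low, at 0.904 to 1.79 CPM (median 1.71) in F11 hearts and 0.908 to 2.46 CPM (median 1.44) in GFP hearts, with a highest adipose value of 0.121 CPM. It was higher in heart by a log2 fold change of 4.62 (SE 0.48 and adjusted p = 1.01e-09) in the GFP libraries and 4.80 (SE 0.48 and adjusted p = 3.80e-10) in the F11 libraries. Kcnd1, the remaining Kcnd gene, ran the other way and was lower in heart, with a log2 fold change of −0.89 in the GFP libraries and −1.36 in the F11 libraries. Its levels were 0.356 to 1.09 CPM (median 0.859) in F11 hearts and 0.591 to 1.26 CPM (median 0.975) in GFP hearts. In adipose tissue Kcnd1 was at 1.36 to 3.33 CPM (median 1.84) with F11 and 0.747 to 2.34 CPM (median 1.87) with GFP. The GFP heart and GFP adipose libraries overlapped for Kcnd1.

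Delayed rectifier pores were measured in both tissues, at higher levels in heart. Kcna5, a pore of the ultrarapid delayed rectifier that is also known from vascular smooth muscle, was measured at 18.4 to 39.7 CPM (median 33) in F11 hearts and 21.2 to 36.5 CPM (median 23.4) in GFP hearts. In adipose tissue it was at 5.53 to 16.7 CPM (median 9.11) in F11 adipose tissue and 7.26 to 14.3 CPM (median 8.27) in GFP adipose tissue. For Kcna5 every heart library lay above every adipose library of the same vector group. The log2 fold change of Kcna5 was 1.46 (SE 0.23 and adjusted p = 2.56e-06) in the GFP libraries and 1.58 in the F11 libraries. Kcnh2, the pore of the rapid delayed rectifier, was measured at 81.9 to 112.9 CPM (median 93.8) in F11 hearts and 69.2 to 109.9 CPM (median 84.9) in GFP hearts. In adipose tissue Kcnh2 was at 6.19 to 17.0 CPM (median 12.7) with F11 and 8.33 to 15.9 CPM (median 12.9) with GFP. Its log2 fold change was 2.78 (SE 0.18 and adjusted p = 4.26e-14) in the GFP libraries and 3.04 (SE 0.18 and adjusted p = 3.91e-15) in the F11 libraries. Kcnq1, the pore of the slow delayed rectifier, was measured at 33.8 to 42.0 CPM (median 35.1) in F11 hearts and 32.7 to 37.4 CPM (median 35.7) in GFP hearts. In adipose tissue Kcnq1 was at 3.16 to 9.92 CPM (median 4.67) with F11 and 3.70 to 7.17 CPM (median 5.25) with GFP. It was higher in heart by a log2 fold change of 2.70 (SE 0.17 and adjusted p = 3.34e-14) in the GFP and 2.76 (SE 0.17 and adjusted p = 1.05e-14) in the F11 libraries (2.96 without L142), with no overlap of the tissues.

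Kcne1, the single-span subunit that slows channels formed by Kcnq1, was low in heart and almost without counts in adipose tissue. It was measured at 2.75 to 7.41 CPM (median 3.46) in F11 hearts and 2.12 to 3.34 CPM (median 3.15) in GFP hearts. In the 8 F11 adipose libraries together 1 count was found, against 603 in the 7 F11 hearts, a ratio of 893 after correction for library size (exact 95% interval, for counting error alone, 160 to 35317). In GFP adipose tissue all Kcne1 counts came from L140, which held 0.846 CPM. With 0 counts in the other 7 libraries and 361 in the 6 GFP hearts, heart was at least 173-fold higher, taking 3 counts over the 7 libraries (0.0170 CPM) as the limit a count of 0 allows. Other Kcne genes lay the other way. Kcne4, which inhibits several voltage-gated channels, had a log2 fold change of −0.77 (SE 0.20 and adjusted p = 0.000931) in the GFP libraries, and Kcne1l had −3.42 (SE 0.38 and adjusted p = 4.09e-09). Kcne3 had −2.40 (SE 0.32 and adjusted p = 9.13e-08), so of the 4 Kcne genes tested 1 was higher and 3 were lower in heart. Kcnc4, which is also known from cardiac muscle, was the 1 of 11 outward channel genes of the cardiac action potential that passed no threshold in either contrast. Its heart levels were 0.444 to 1.24 CPM (median 0.741) in F11 hearts and 0.435 to 0.849 CPM (median 0.590) in GFP hearts, and L142 alone held 9.40 CPM in F11 adipose tissue, where the median was 0.0653. In the F11 libraries its log2 fold change was −0.69 with L142 and 3.73 (adjusted p = 3.27e-08) without it, and in the GFP libraries it was 1.85 (SE 1.07 and adjusted p = 0.116), with an adjusted p of 0.000175 once L142 was left out of the shared estimate of the spread. The other 10 outward genes were higher in heart in both contrasts (background 36.8% in the GFP and 36.6% in the F11 libraries).

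A pair of silent subunits had some of the largest contrasts with adipose tissue. Kcng2, which joins other voltage-gated pores and alters their gating, reached 170.2 CPM in F11 hearts (median 155) and 162 CPM in GFP hearts (median 149.6). In adipose tissue it was at 0.216 to 0.536 CPM (median 0.374) in F11 adipose tissue, and 0.160 to 0.395 CPM (median 0.285) in the GFP adipose libraries other than L140, which held 4.78 CPM. On the log2 scale its fold change was 7.57 (SE 0.46 and adjusted p = 1.44e-14) in the GFP libraries, 9.04 without L140, and 8.68 (SE 0.49 and adjusted p = 2.18e-15) in the F11 libraries. Its spread between hearts was small, at 154 ± 10.6 CPM (SD, n = 7) with F11 and 150.4 ± 7.90 CPM (SD, n = 6) with GFP, and no library of the tissues overlapped. Kcnv2, another silent partner of voltage-gated pores, reached 17.0 to 27.4 CPM (median 20.7) in F11 hearts and 17.9 to 33.9 CPM (median 23.9) in GFP hearts, against at most 0.153 CPM in F11 adipose tissue and 0.197 CPM in GFP adipose libraries other than L140. The fold change of Kcnv2 on the log2 scale was 6.49 (SE 0.45 and adjusted p = 1.84e-13) with L140, 7.70 without it and 8.42 (SE 0.52 and adjusted p = 1.74e-14) in the F11 libraries. Kcns3, also a silent partner of voltage-gated pores, showed the opposite order and is described with the adipose genes. Among other Shaker-type pores, Kcna7 was at 7.23 to 9.45 CPM (median 8.70) in F11 hearts and 8.47 to 9.93 CPM (median 8.93) in GFP hearts and at most 0.303 CPM in any adipose library. On the log2 scale Kcna7 was higher in heart by 6.25 (SE 0.36 and adjusted p = 4.17e-15) in the GFP libraries. Kcna2 was at 3.78 to 7.07 CPM (median 5.98) in F11 hearts and 5.80 to 8.05 CPM (median 6.59) in GFP hearts. In adipose tissue Kcna2 was at 0.651 to 2.17 CPM (median 1.69) with F11 and 0.495 to 3.62 CPM (median 0.964) with GFP. On the log2 scale Kcna2 was higher in heart by 2.09 in the GFP libraries.

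Cardiac inward rectifiers showed large differences between the tissues. Of the 6 genes listed, 5 were tested and all 5 were higher in heart in both contrasts, with a median log2 fold change of 6.71 in the GFP and 7.66 in the F11 libraries. The background of genes higher in heart was 36.8% in the GFP and 36.6% in the F11 libraries. Kcnj11, the pore of the ATP-sensitive channel, was measured at 183 to 203 CPM (median 192) in F11 hearts and 168 to 194 CPM (median 187) in GFP hearts. In adipose tissue it was at 0 to 6.63 CPM (median 0.141) in F11 adipose tissue, and 0.0410 to 0.361 CPM (median 0.135) in the GFP adipose libraries other than L140, which held 12.6 CPM. The F11 adipose maximum was L142, as for the epididymal markers. Its log2 fold change was 6.84 (SE 0.96 and adjusted p = 2.76e-07) in the GFP libraries and 10.09 without L140, and 7.66 (SE 0.99 and adjusted p = 6.56e-08) in the F11 libraries and 10.61 without L142. Of the sulphonylurea receptors that complete this channel, Abcc8 had a log2 fold change of 5.99 (SE 0.53) and Abcc9 of 3.04 (SE 0.13) in the GFP libraries.

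Kcnj2 and Kcnj12, the strong inward rectifiers that hold the resting potential of ventricular muscle, differed in how far adipose tissue fell short. Kcnj2 was measured at 47.5 to 67.0 CPM (median 53.7) in F11 hearts and 51.0 to 77.2 CPM (median 66.9) in GFP hearts. In adipose tissue Kcnj2 was at 6.79 to 29.6 CPM (median 11.8) with F11 and 9.03 to 20.1 CPM (median 14.4) with GFP. Its log2 fold change was 2.22 (SE 0.25 and adjusted p = 6.00e-09) in the GFP and 2.05 (SE 0.24 and adjusted p = 1.42e-08) in the F11 libraries, with no overlap of the tissues. Kcnj12 was measured at 27.4 to 36.3 CPM (median 31.4) in F11 hearts and 26.1 to 33.5 CPM (median 28.3) in GFP hearts. Its adipose levels were 0.0768 CPM (median) with F11, where L142 held 1.27 CPM, and 0 CPM (median) with GFP outside L140, which held 1.05 CPM. Kcnj12 was higher in heart by a log2 fold change of 7.63 (SE 0.63 and adjusted p = 1.05e-11) in the GFP libraries and 9.57 without L140, and 7.16 (SE 0.59 and adjusted p = 8.86e-12) in the F11 libraries and 8.83 without L142. Kcnj4, another strong rectifier, did not pass the filter for this comparison and was at 0.324 to 0.621 CPM (median 0.497) in F11 hearts and 0.0899 to 0.689 CPM (median 0.387) in GFP hearts. Its adipose levels were at most 0.0382 CPM with F11 and 0.149 CPM with GFP.

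Kcnj3 and Kcnj5 together form the acetylcholine-activated channel of atrial and pacemaker cells. Kcnj3 was measured at 105.3 to 237 CPM (median 132.5) in F11 hearts and 111.5 to 228 CPM (median 167) in GFP hearts. Its adipose levels were 0 to 0.181 CPM (median 0.0961) in F11 adipose tissue, and 0.0335 to 0.242 CPM (median 0.118) in the GFP adipose libraries other than L140, which held 12.8 CPM. Kcnj5 was measured at 85.2 to 137.6 CPM (median 103.3) in F11 hearts and 79.9 to 131.4 CPM (median 108.1) in GFP hearts. Its adipose levels were 0.130 to 0.824 CPM (median 0.225) in F11 adipose tissue, and 0.0789 to 0.401 CPM (median 0.203) in the GFP adipose libraries other than L140, which held 10.5 CPM. For each gene all hearts lay above all adipose libraries. The log2 fold change of Kcnj3 was 6.71 (SE 0.77 and adjusted p = 7.22e-09) in the GFP libraries, 10.25 without L140, and 10.53 (adjusted p = 1.58e-10) in the F11 libraries. That of Kcnj5 was 6.23 (SE 0.67 and adjusted p = 1.94e-09), 8.86 without L140, and 8.34 (SE 0.76 and adjusted p = 7.24e-11). Exons of Kcnj3 share 31.1% of their length with an annotated RNA of the opposite strand, Gm26794, and no source used here says how strand was treated in counting.

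Kcnk3, a tandem-pore leak channel sensitive to acid, had the highest level of the family in heart. It was measured at 362 to 416 CPM (median 411) in F11 hearts and 374 to 412 CPM (median 393) in GFP hearts. In adipose tissue Kcnk3 was at 23.2 to 35.4 CPM (median 29.0) with F11 and 29.2 to 35.9 CPM (median 32.1) with GFP. The libraries of a tissue lay close together and the tissues did not overlap. The log2 fold change was 3.60 (SE 0.08 and adjusted p = 2.63e-24) in the GFP libraries and 3.76 (SE 0.07 and adjusted p = 5.57e-25) in the F11 libraries, the lowest adjusted p of the family in each, and it was 3.67 without L140. Adipose tissue nonetheless also held Kcnk3, at the level per length given above. Of the other tandem-pore channels tested, 4 were lower in heart in the GFP libraries (Kcnk2, Kcnk5, Kcnk6 and Kcnk13) and 1 higher (Kcnk4, at under 1 CPM in all groups). Kcnk2, a leak channel opened by stretch, was at 2.70 to 4.03 CPM (median 3.44) in F11 hearts and 2.98 to 4.08 CPM (median 3.40) in GFP hearts. In adipose tissue Kcnk2 was at 4.43 to 8.61 CPM (median 6.87) with F11 and 5.41 to 11.7 CPM (median 7.55) with GFP. Kcnk2 was lower in heart, with a log2 fold change of −1.19 (SE 0.17 and adjusted p = 3.37e-07) in the GFP and −0.96 in the F11 libraries. Among channels opened by calcium, Kcnn2, a small-conductance channel known from atrial and ventricular muscle, was at 18.9 to 22.8 CPM (median 21.8) in F11 hearts and 16.2 to 20.6 CPM (median 18.8) in GFP hearts. In adipose tissue Kcnn2 was at 0.0723 to 1.31 CPM (median 0.188) with F11 and 0.0789 to 1.42 CPM (median 0.181) with GFP. It was higher in heart by a log2 fold change of 5.49 (SE 0.50 and adjusted p = 8.38e-11) in the GFP and 5.37 (SE 0.48 and adjusted p = 5.22e-11) in the F11 libraries, and by 6.13 in the GFP libraries without L136. Its relative Kcnn1 was higher in heart by 2.42 and 2.56, at 8.54 and 7.82 CPM (medians) in F11 and GFP hearts.

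In adipose tissue Kcnj15, an inward rectifier known from kidney and pancreatic islets, was the leading member. It was measured at 1.59 to 3.34 CPM (median 2.89) in F11 hearts and 2.09 to 4.64 CPM (median 2.52) in GFP hearts. In adipose tissue Kcnj15 was at 45.6 to 96.1 CPM (median 76.4) with F11 and 59.8 to 98.7 CPM (median 81.6) with GFP. Every adipose library lay above every heart library, by a log2 fold change of heart over adipose tissue of −4.77 (SE 0.21 and adjusted p = 1.07e-17) in the GFP and −4.85 (SE 0.20 and adjusted p = 1.58e-18) in the F11 libraries. The silent subunit Kcns3 was measured at 0.104 to 0.278 CPM (median 0.208) in F11 hearts and 0.0968 to 0.504 CPM (median 0.315) in GFP hearts. In adipose tissue Kcns3 was at 14.2 to 39.6 CPM (median 28.2) with F11 and 20.5 to 40.8 CPM (median 26.1) with GFP. Its heart counts were close to the counting limit, and its log2 fold change was −6.49 (SE 0.31 and adjusted p = 4.80e-17) in the GFP and −7.20 (SE 0.31 and adjusted p = 3.04e-18) in the F11 libraries. Kcnc2, a fast voltage-gated pore known from neurons, was at 0.725 to 1.68 CPM (median 1.35) in F11 hearts and 0.550 to 2.38 CPM (median 1.44) in GFP hearts. In adipose tissue Kcnc2 was at 4.75 to 9.98 CPM (median 7.16) with F11 and 4.37 to 8.65 CPM (median 6.15) with GFP. The tissues did not overlap for Kcnc2, which had a log2 fold change of −2.19 (SE 0.25 and adjusted p = 4.99e-09) in the GFP libraries. Neither L140 nor L142 changed the direction or the call of these 3 genes. Lower levels with the same order were those of Kcne1l (log2 −3.42), Kcnu1 (−3.87) and Kcnh4 (−2.95), for which the highest group mean was 2.35, 0.674 and 0.614 CPM. Kcnh4 changed to −4.13 without the GFP heart library L8, and Kcnu1 in the F11 libraries had −4.29, and −4.90 without the F11 heart library L35.

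A list of channels known from immune cells held 6 genes, of which 5 were tested and all 5 were lower in heart in both contrasts, with a median log2 fold change of −2.86 in the GFP and −2.13 in the F11 libraries. The background of genes lower in heart was 43.4% in the GFP and 45% in the F11 libraries. Kcnn4, the calcium-activated channel of macrophages and lymphocytes, was measured at 0.362 to 0.832 CPM (median 0.667) in F11 hearts and 0.45 to 0.822 CPM (median 0.673) in GFP hearts. In adipose tissue Kcnn4 was at 5.32 to 39.5 CPM (median 13.0) with F11 and 3.34 to 37.8 CPM (median 20.9) with GFP. Its log2 fold change was −4.90 (SE 0.55 and adjusted p = 5.05e-09) in the GFP and −4.78 (SE 0.52 and adjusted p = 2.24e-09) in the F11 libraries, with no overlap of the tissues. Kcnab2, an accessory subunit of Shaker-type channels, was measured at 1.66 to 2.27 CPM (median 1.90) in F11 hearts and 1.41 to 2.03 CPM (median 1.68) in GFP hearts. In adipose tissue Kcnab2 was at 6.26 to 41.6 CPM (median 15.3) with F11 and 5.77 to 37.5 CPM (median 21.2) with GFP. The fold change of Kcnab2 was −3.57 (SE 0.40 and adjusted p = 6.09e-09) on the log2 scale in the GFP libraries, and no library of the tissues overlapped. Kcnk13, a tandem-pore channel known from mouse microglia and macrophages, was at 0.578 to 1.39 CPM (median 0.904) in F11 hearts and 0.550 to 0.706 CPM (median 0.629) in GFP hearts. In adipose tissue Kcnk13 was at 1.39 to 10.1 CPM (median 3.55) with F11 and 1.24 to 10.9 CPM (median 4.37) with GFP. Its log2 fold change was −2.86 (SE 0.45 and adjusted p = 1.58e-06) in the GFP libraries and −2.13 (SE 0.40 and adjusted p = 2.62e-05) in the F11 libraries, where the tissues overlapped at the edge. Kcnk6, which is known from macrophages in the mouse, was at 6.37 to 7.56 CPM (median 7.00) in F11 hearts and 6.34 to 8.17 CPM (median 7.37) in GFP hearts. In adipose tissue Kcnk6 was at 8.01 to 26.0 CPM (median 13.2) with F11 and 6.07 to 27.0 CPM (median 16.4) with GFP. The fold change of Kcnk6 was −1.13 (SE 0.25 and adjusted p = 0.000147) on the log2 scale in the GFP libraries, where the tissues overlapped. Kcnk5 was lower in heart with a log2 fold change of −1.58 (SE 0.55 and adjusted p = 0.0108) in the GFP and −1.52 (SE 0.53 and adjusted p = 0.0102) in the F11 libraries, and the F11 value was −0.68 (adjusted p = 0.125) without L142, which held 7.45 CPM. Kcna3, the voltage-gated channel of T cells, was not tested, since it was at or under 0.405 CPM in every library. The inward rectifier Kcnj14, which was not on that list, was at 0.978 to 2.85 CPM (median 1.51) in F11 hearts and 1.75 to 2.42 CPM (median 1.84) in GFP hearts. In adipose tissue Kcnj14 was at 4.43 to 21.7 CPM (median 12.4) with F11 and 2.64 to 27.6 CPM (median 15.4) with GFP. The fold change of Kcnj14 on the log2 scale was −3.00 (SE 0.43 and adjusted p = 4.26e-07) in the GFP libraries, without overlap.

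Within adipose tissue most of these genes, but not Kcnk5, varied along with markers of macrophages, of fibroblasts and, in the opposite direction, of adipocytes. They differed several-fold between libraries. The relation was examined over the 16 adipose libraries for the 39 members tested there, against the mean log2(CPM + 0.5) of 11 macrophage markers, of which Lpl and Cd9 are also known from adipocytes, and which ran from 5.62 in L140 to 8.91, and it was added after the data were seen. Kcnn4 had a Pearson's r of 0.99 (permutation p = 1e-05, adjusted 0.000106) and a Spearman's rho of 0.98 (permutation p = 1e-05, adjusted 0.000117). This p is the smallest that the 100000 permutations can give, and it was also reached by Kcnab2 (r = 0.98), Kcnk6 (r = 0.98), Kcnk13 (r = 0.97) and Kcnj2 (r = 0.89). Kcnj14 had r = 0.88 (permutation p = 3.00e-05). Kcnk5, also on the immune list, ran the other way, with r = −0.56 (permutation p = 0.0235, adjusted 0.0525). Its rho was −0.63 (permutation p = 0.0110, adjusted 0.0294), and its r without L140 and L142 was −0.32. After the libraries farthest from the median, L140 and L145, were left out, r was 0.99 for Kcnn4, 0.94 for Kcnj2 and 0.77 for Kcnj14. Within the F11 libraries r was 0.99 for Kcnn4 and 0.95 for Kcnj2, and within the GFP libraries 0.998 and 0.93 (n = 8 each). Of 39 members, 10 passed by both coefficients at a p adjusted over all 15229 genes, which is 25.6% against a background of 39.8% of all genes. Of these 6 had a positive sign (background 24.3%) and 4 a negative one (15.5%), so the family held no larger share than genes at large. The negative ones included Kcnt1 (r = −0.78), Kcns3 (−0.74) and Kcne4 (−0.64), and without L140 and L142 these were −0.80, −0.91 and −0.75. Kcnj15, the leading adipose member, had r = −0.30 (permutation p = 0.266). Members share the libraries, so these coefficients are not independent of each other. All 11 macrophage markers were lower in heart in both contrasts, with sums of 4448 to 5852 CPM in F11 hearts and 4554 to 5866 CPM in GFP hearts, against 8030 to 13902 CPM in F11 adipose tissue and 8545 to 13809 CPM in GFP adipose tissue. Their part in the tissue difference of these channels was not tested. Other marker lists ran along the same axis. Of 17 other lists, the mean log2 level of 7 fibroblast markers had r = 0.90 with that of the macrophage markers (permutation p = 1e-05, adjusted 8.50e-05; rho = 0.93), and was 8.89 in L148 and 7.56 in L140, the libraries with the highest and lowest macrophage level. The mean of 9 white adipocyte markers ran the other way with r = −0.76 (permutation p = 0.000670, adjusted 0.00380; rho = −0.77), at 9.11 in L148 and 10.61 in L140. The third list that passed by both coefficients, 7 markers of the cardiac conduction system at low level, had r = −0.89 (permutation p = 1e-05, adjusted 8.50e-05), with mean log2 levels of 0.87 in L148 and 1.62 in L140. Without L140 and L145 the fibroblast and adipocyte values were 0.88 and −0.71, and within the F11 and the GFP libraries 0.93 and 0.89 for fibroblast and −0.68 and −0.87 for adipocyte markers. The relation of the channels to macrophage markers was not tested apart from the levels of fibroblast and adipocyte markers.

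Within heart, the corresponding relation was examined with markers of atrial muscle, whose sum ranged from 431 to 4128 CPM in F11 hearts and from 74.4 to 4731 CPM in GFP hearts. Over the 13 hearts and 55 members, and again added after the data were seen, Kcnj5 had a Pearson's r of 0.81 (permutation p = 0.000340, adjusted 0.0430) and a Spearman's rho of 0.83 (permutation p = 0.000880, adjusted 0.0666) with the log2 marker sum. Without L1 and L8, the libraries farthest from the median, r was 0.77, and within the F11 and the GFP hearts it was 0.78 and 0.85. Its partner Kcnj3 had r = 0.73 (permutation p = 0.00246, adjusted 0.136) and rho = 0.80 (permutation p = 0.00154, adjusted 0.0971), with r = 0.86 without the same pair of libraries. These values are adjusted over all 14684 genes, of which 0.701% passed by both coefficients, and 0 of the 55 members did. Coefficients near those of Kcnj3 were also found for other members. They included Kcnt2 (r = 0.77, rho = 0.77), Kcna4 (0.70 and 0.63) and Kcnh7 (0.66 and 0.78), and in the other direction Kcnt1 (−0.65 and −0.69). Kcnd2, a pore of ventricular muscle, had r = −0.09 (permutation p = 0.771).

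**Figure D3:**
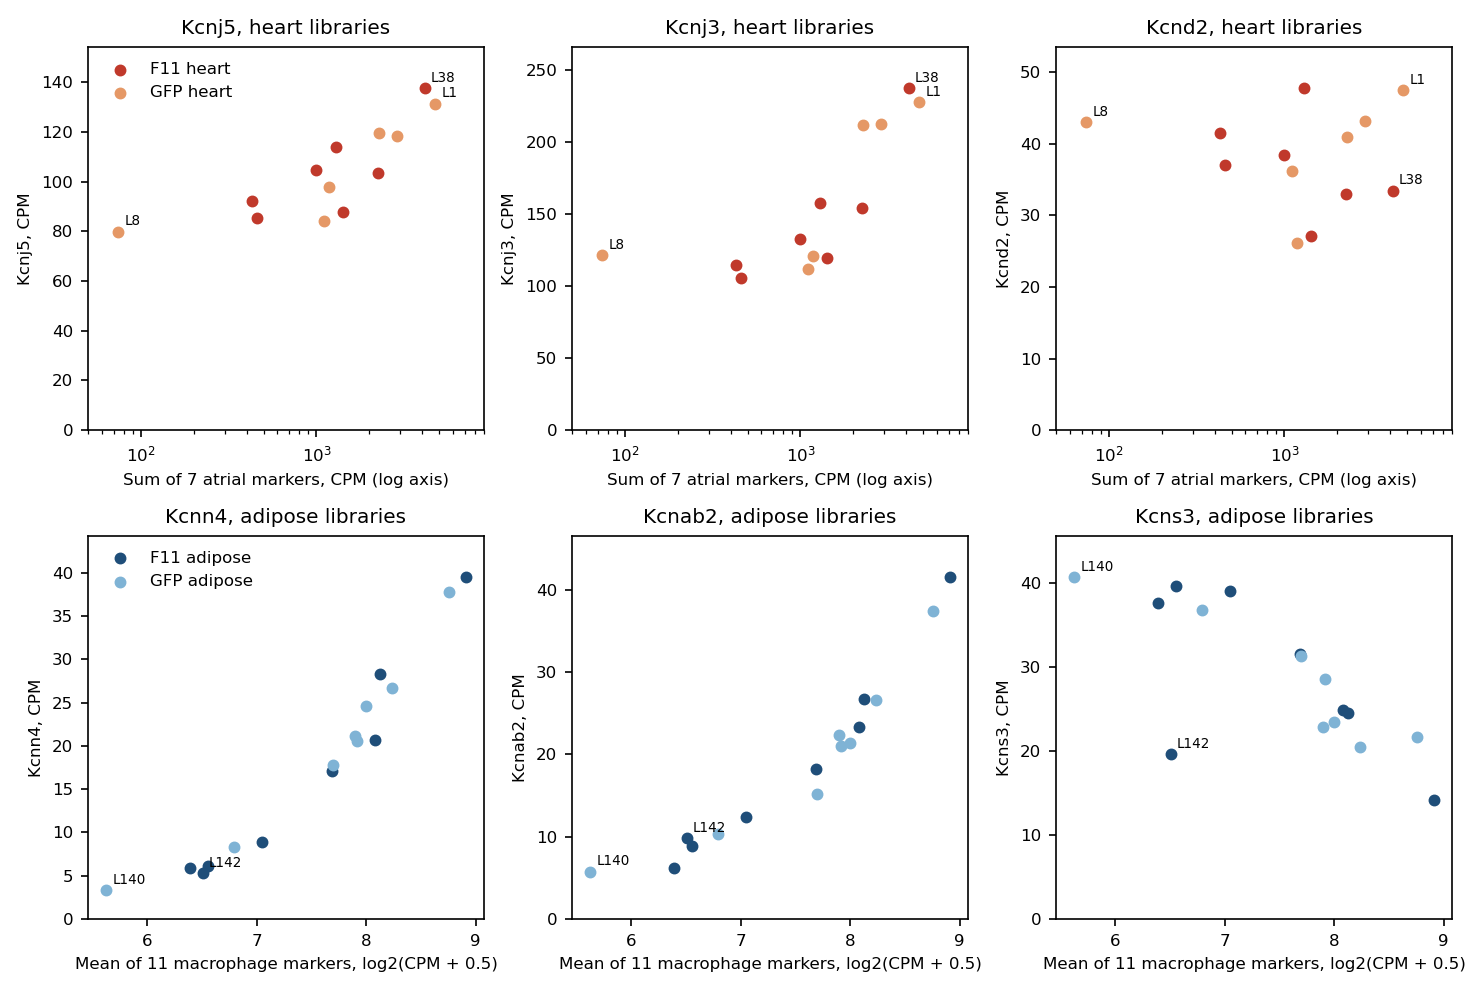
Upper row, CPM of Kcnj5, Kcnj3 and Kcnd2 in 13 heart libraries against the summed CPM of 7 atrial markers (log axis). Lower row, CPM of Kcnn4, Kcnab2 and Kcns3 in 16 adipose libraries against the mean log2(CPM + 0.5) of 11 macrophage markers. Kcnn4 and Kcnab2 follow the macrophage markers along a single line in F11 and GFP libraries alike, Kcns3 runs the other way, with L142 below the libraries of similar marker level, and Kcnj5 and Kcnj3 are highest in L38 and L1, the hearts richest in atrial markers. L8, the heart poorest in atrial markers, is lowest for Kcnj5 but not for Kcnj3.

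Genes known from smooth muscle did not move as a group between the tissues. Of 6 listed, 3 were higher in heart in the GFP libraries and 0 were lower, and in the F11 libraries 3 were higher and 1 lower by the same edgeR test, with 4 at an unadjusted p under 0.05 in each contrast. The background was 36.8% higher and 43.4% lower in the GFP, and 36.6% and 45% in the F11 libraries. At an unadjusted p under 0.05 it was 81.2% and 82.4%. The 3 listed genes that were higher were Kcna5 and Kcnj2, described above, and Kcnmb1, the accessory subunit of the large-conductance calcium-activated channel of vessels. Kcnmb1 was at 1.66 to 2.62 CPM (median 2.27) in F11 hearts and 2.20 to 3.26 CPM (median 2.57) in GFP hearts. In adipose tissue Kcnmb1 was at 0.254 to 1.84 CPM (median 0.505) with F11 and 0.323 to 3.61 CPM (median 0.441) with GFP. The highest GFP adipose value of Kcnmb1 came from L138, and the tissues overlapped. The fold change on the log2 scale was 1.26 (SE 0.46 and adjusted p = 0.0149) in the GFP libraries, 1.85 without L138, and 1.77 (SE 0.46 and adjusted p = 0.000941) in the F11 libraries. With total counts in place of TMM, Kcnmb1 was no longer called, at 0.32 (adjusted p = 0.528) in the GFP and 0.76 (adjusted p = 0.124) in the F11 libraries. The pore of that channel, Kcnma1, had −0.67 (SE 0.32 and adjusted p = 0.0554) on the log2 scale in the GFP libraries, where leaving out L2, L9, L134, L136, L139, L142 or L148 gave an adjusted p of 0.0296 to 0.0492, and −0.54 (SE 0.30 and adjusted p = 0.0988) in the F11 libraries (0.0419 without L35). Kcnq5 was lower in heart in the F11 libraries (log2 −1.41 (SE 0.32 and adjusted p = 0.000221)), and was at −0.38 (SE 0.32 and adjusted p = 0.280) in the GFP libraries. Whether Kcnq5 differed between these contrasts is given by the test of the difference below, which it did not pass (adjusted p = 0.604). The summed level of 10 pericyte and smooth muscle markers was 1454 to 1658 CPM in F11 hearts and 1377 to 1763 CPM in GFP hearts, against 977 to 1492 CPM in F11 adipose tissue and 980.2 to 1316 CPM in GFP adipose tissue, and 4 of these markers were higher and 4 lower in heart in the GFP libraries.

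The mixed libraries decided how large several tissue differences came out. Of 20 members that were at least 2-fold higher in heart in the F11 libraries, with a mean of at least 5 CPM in F11 hearts, 9 had their highest adipose value in L140. L140 held 12.6 CPM of Kcnj11, 12.8 of Kcnj3, 10.5 of Kcnj5 and 8.11 of Kcnip2, which are 6.84%, 7.66%, 9.94% and 6.89% of their means in GFP hearts. The cardiomyocyte marker sum of L140 was 10.01% of the median of GFP hearts. Kcna5 and Kcnh2, which adipose tissue holds in every library, were not raised in L140 beyond the other adipose libraries. L142 was highest among F11 adipose libraries for Kcnc4 (9.40 CPM), Kcnip3 (8.99), Kcnk5 (7.45) and Kcnj16 (5.09), against medians of 0.0653, 2.35, 1.03 and 0.998 CPM. Kcnj16, an inward rectifier known from kidney and brain, was lower in heart with a log2 fold change of −2.92 (SE 0.64 and adjusted p = 0.000157) in the GFP libraries and −1.53 (SE 0.58 and adjusted p = 0.0171) in the F11 libraries, and the F11 value without L142 was −0.95 (adjusted p = 0.103). Its adipose levels ran from 0.610 to 12 CPM over the GFP libraries, and the tissues did not overlap in the GFP libraries. Kcnj16 had 300 counts in L138, 197 in L135 and 121 in L140, and 15 to 53 in the other GFP adipose libraries. Kcnk5 was highest in the same GFP libraries. The sum of 7 mammary and surface epithelium markers was 51.9, 15.6 and 35.6 CPM in these, and 208 CPM in L142. It was also 29.4 CPM in L136 and 30.1 CPM in L145, where Kcnj16 had 15 and 25 counts. The part of epithelial transcripts was not tested. A pair of genes outside the rule for named genes was chosen here after its values were seen. Kcnk1, a tandem-pore channel, was at 66.4 CPM in L142, 10.7 in L138, 7.57 in L140 and 3.41 in L135, and at or under 0.219 CPM in the other 12 adipose libraries, with 0.260 to 0.934 CPM (median 0.588) in F11 hearts and 0.404 to 0.736 CPM (median 0.542) in GFP hearts. Kcnh3, a relative of Kcnh2 known from brain, was at 17.9 CPM in L142 and at or under 1.84 CPM in the others.

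**Figure D4:**
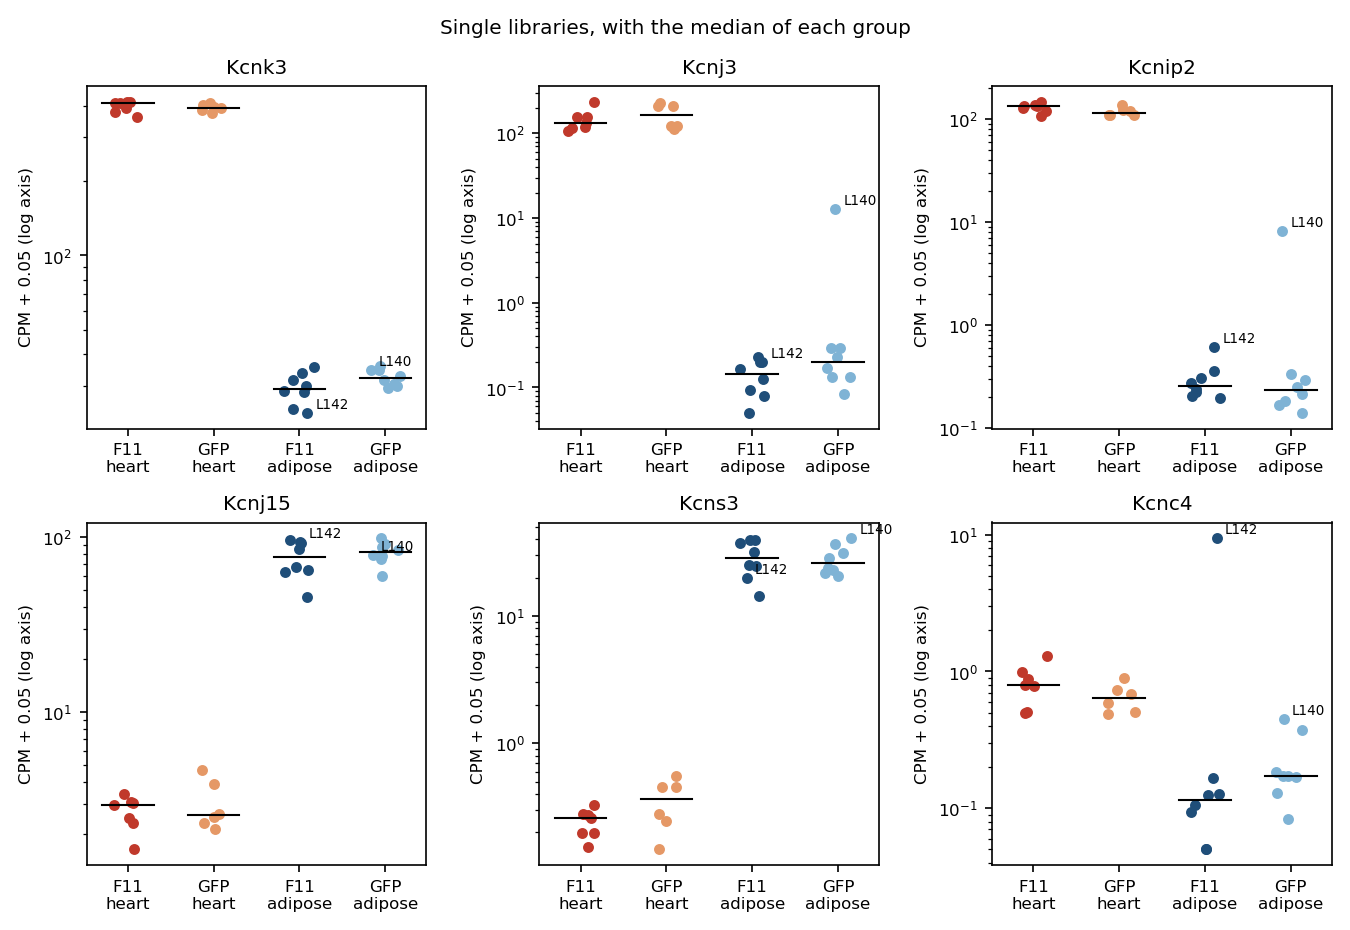
CPM (plus 0.05, log axis) of Kcnk3, Kcnj3, Kcnip2, Kcnj15, Kcns3 and Kcnc4 in each library of the 4 groups, with black lines at group medians and L140 and L142 marked. Kcnk3 is tight within groups, the tissues lie apart for Kcnj15 and Kcns3, Kcnj3 and Kcnip2 have L140 alone far above the other adipose libraries, and Kcnc4 has L142 alone far above them.

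Few neighbouring members could be compared in direction. There were 17 pairs of neighbouring members within 500 kb, of which 6 had both genes past the threshold in the GFP libraries, 3 in the same and 3 in opposite directions. These pairs lie on chromosomes 6, 7 and 11 and several share a gene, so they are not independent. The share for gene pairs at large is not given here. Kcnj16 and Kcnj2 lie 38.2 kb apart on chromosome 11 (GRCm38), where Kcnj16 was lower (log2 −2.92) and Kcnj2 higher in heart (2.22). On chromosome 7, Kcnj14 (−3.00) lies between Kcna7 (6.25) and Kcnj11 (6.84). The Kcna5, Kcna1 and Kcna6 genes on chromosome 6 were all higher in heart (log2 1.46, 3.63 and 3.22). Exons of Kcna6 share 39.6% of their length with an annotated antisense RNA, Gm26673, so its counts could include reads of that RNA.

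The comparison of F11 with GFP in heart asks whether the vector's product moved potassium channel transcripts in the heart of this disease model. None of the 55 members tested passed the threshold (0 of 55, against 0.872% of 14684 genes) by edgeR's quasi-likelihood test, nor by DESeq2 or limma voom. At an unadjusted p under 0.05 there were 7 of 55, or 12.7%, against 12.5% of all genes. The median log2 fold change was 0.02 for the members and −0.01 for all genes. The lowest p was that of Kcnn2, with the heart levels given above (log2 0.20 (SE 0.06 and adjusted p = 0.144)). The F11 and GFP hearts overlapped for Kcnn2, with 7 of 7 F11 hearts above the GFP median. Next was Kcnc1, a fast voltage-gated pore known from neurons (log2 0.85 (SE 0.27 and adjusted p = 0.179)). Kcnc1 was at 2.18 to 7.82 CPM (median 3.48) in F11 hearts and 1.31 to 2.62 CPM (median 2.26) in GFP hearts. Its highest library, L35, had 173 counts against 49 to 91 in the other F11 hearts. L35 was also highest for Kcne1, with 164 counts against 53 to 109. The sum of 10 skeletal muscle markers was 3408 CPM in L35 and 1719 to 2376 CPM in the other hearts, and its part was not tested. Kcnk13 followed, at the heart levels given above (log2 0.55 (SE 0.20 and adjusted p = 0.244)). Both groups of hearts overlapped for these genes as well, and for all 46 named members in heart and in adipose tissue alike. The remaining members with an unadjusted p under 0.05 were Kcnip4 (log2 −0.70 (SE 0.28 and adjusted p = 0.287)), Kcne1 (0.48 (SE 0.21 and adjusted p = 0.362)), Kcnip3 (0.33 (SE 0.15 and adjusted p = 0.370)) and Kcnj2 (−0.23 (SE 0.10 and adjusted p = 0.391)).

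For several abundant cardiac genes the intervals of the F11 effect were narrow. The 95% interval of the log2 fold change of F11 over GFP was −0.07 to 0.09 for Kcnk3, −0.02 to 0.13 for Kcnj11, −0.06 to 0.13 for Kcng2 and −0.08 to 0.12 for Kcnq1. It was −0.00 to 0.26 for Kcnip2 and −0.06 to 0.37 for Kcnh2. Wider intervals were those of Kcnd2, at −0.39 to 0.18, and Kcna5, at −0.24 to 0.63. Kcnj3 had −0.68 to 0.28 and Kcnj5 −0.30 to 0.25. Among the 11 outward genes 9 had a positive and 2 a negative fold change (median 0.05), and 0 passed the threshold with 1 at an unadjusted p under 0.05. Of the 6 inward rectifiers 3 were positive, 0 passed and 1, Kcnj2, had an unadjusted p under 0.05. The cardiomyocyte marker sum was 73352 to 84040 CPM in F11 hearts and 65155 to 68289 CPM in GFP hearts, without overlap, and its part in small positive values was not tested. Each of the 7 atrial markers had a value below 0 in that comparison, with 0 past the threshold by edgeR and 0 at an unadjusted p under 0.05.

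**Figure D5:**
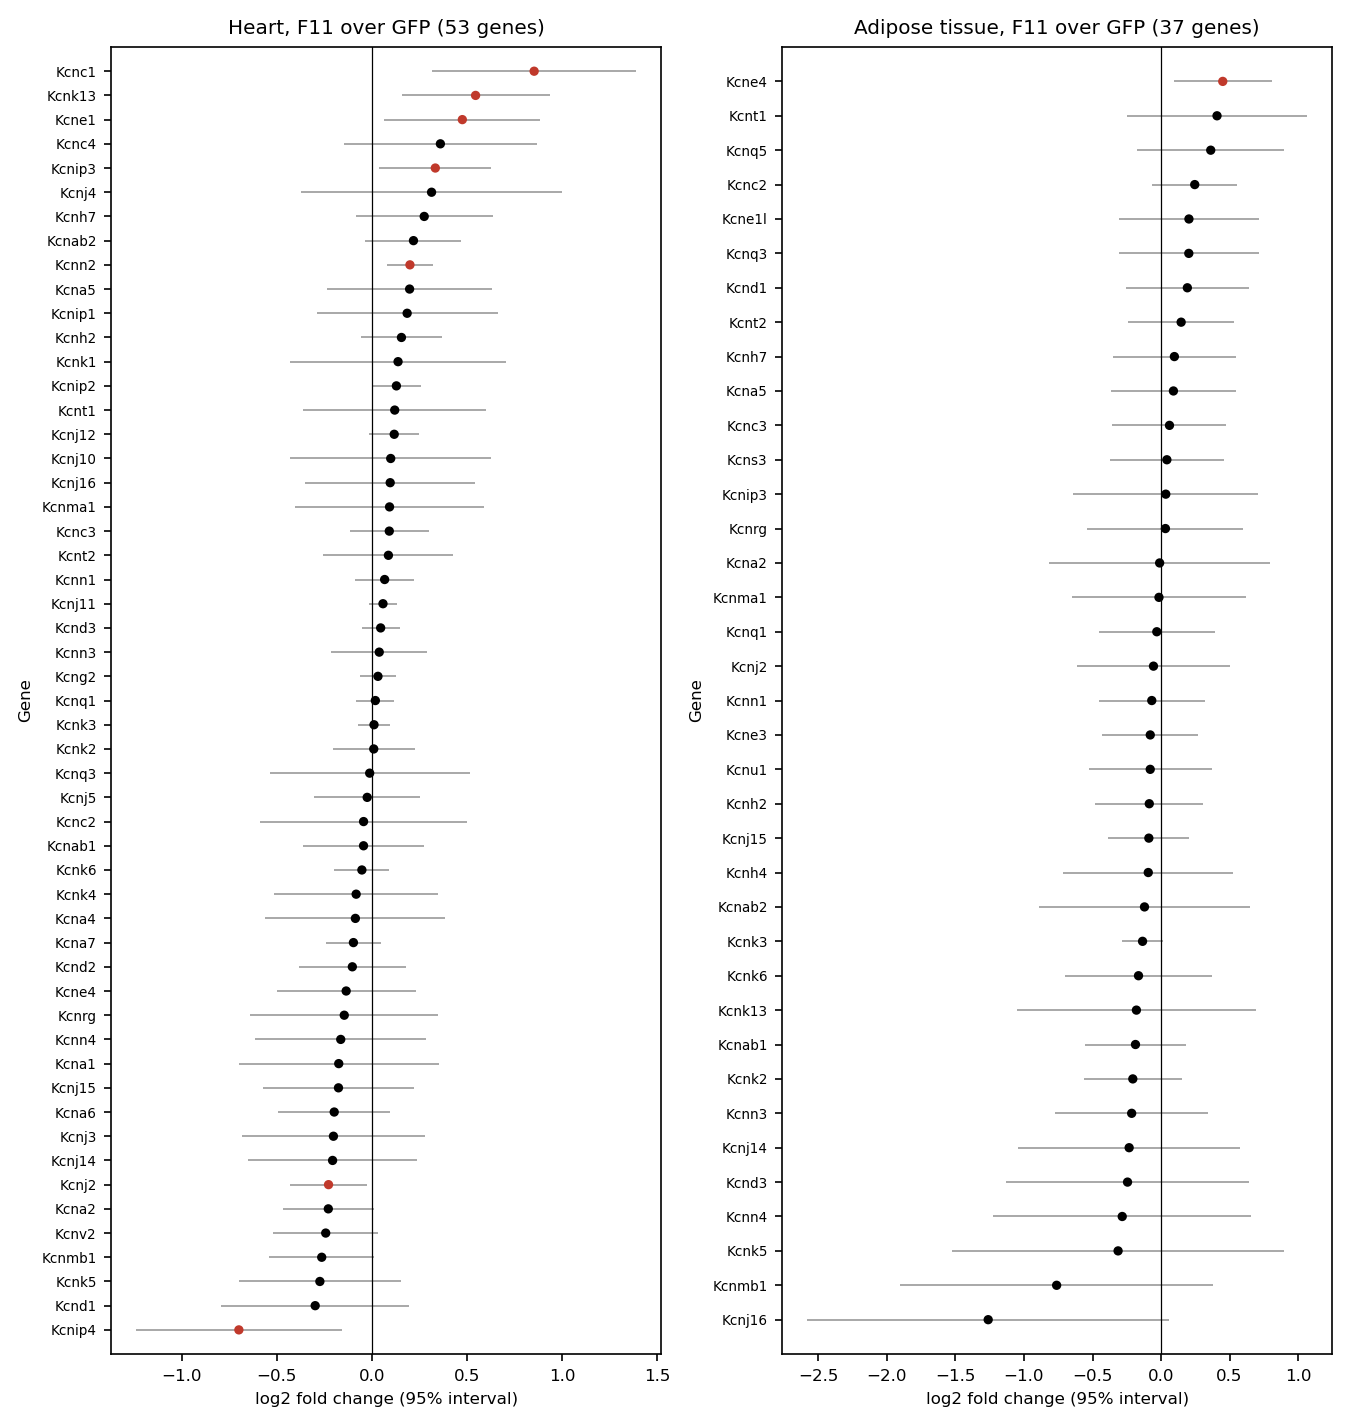
Log2 fold change of F11 over GFP with its 95% interval (edgeR) for 53 of the 55 members tested in heart and 37 of the 39 tested in adipose tissue, ordered by size, with an unadjusted p under 0.05 in red. Most heart intervals are narrow and span 0, and the adipose intervals are wider.

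In adipose tissue 0 of 39 members passed the threshold for F11 against GFP by edgeR (background 0% of 15229 genes), and none passed by DESeq2, which called 11 genes in all, or by limma voom. At an unadjusted p under 0.05 there was 1 of 39, against 4.19% of all genes. It was Kcne4, at 2.94 to 7.81 CPM (median 5.59) in F11 adipose tissue and 3.23 to 4.78 CPM (median 4.16) in GFP adipose tissue (log2 0.45 (SE 0.18 and adjusted p = 0.9996)), and the groups overlapped. Kcne4 was also among the members with a negative correlation with macrophage markers. Kcnj15 was at −0.09 (SE 0.15 and adjusted p = 0.9996) on the log2 scale with a 95% interval of −0.38 to 0.21, Kcns3 at 0.04 (SE 0.21 and adjusted p = 0.9996) with −0.38 to 0.46, and Kcnk3 at −0.13 (SE 0.08 and adjusted p = 0.9996) with −0.29 to 0.02. The intervals were −1.22 to 0.66 for Kcnn4 and −0.89 to 0.65 for Kcnab2. Kcnj16 was at log2 −1.26 (SE 0.67 and adjusted p = 0.9996). The square root of the common dispersion, the typical relative spread between libraries, was 0.355 in adipose tissue and 0.105 in heart.

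A test of whether the F11 effect differed between heart and adipose tissue called 0 of 61 members by edgeR, against 0.0242% of 16526 genes. At an unadjusted p under 0.05 there were 10 members, against 7.43% of all genes, 7 with a positive difference (3.71% of all genes) and 3 with a negative one (3.72%). DESeq2 called 3 members higher, Kcnd2, Kcng2 and Kcnip2, and voom called 0. The edgeR values of these were 2.49 (SE 1.03 and adjusted p = 0.541), 1.11 (SE 0.66 and adjusted p = 0.767) and 2.19 (SE 0.95 and adjusted p = 0.598). Without L140, the GFP adipose library rich in cardiac transcripts, they were 0.25, −0.33 and −0.39. In the adipose libraries other than L140 these 3 genes were at or below 0.562 CPM. In the fit without L140, 6 of 62 members (9.68%) had an unadjusted p under 0.05 by edgeR, all with a negative difference. The share over all genes in that fit is not given here, so the count has no background. The median difference was −0.04 for the members and −0.02 for all genes tested.

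Partners of potassium channels with other names and the remaining ion channels of the cardiac action potential were examined with the same fits. Of 14 partners 12 were tested, 10 were higher and 1 lower in heart in both contrasts, and none changed with F11 in heart by edgeR (2 at an unadjusted p under 0.05, among them Amigo1 with log2 −0.11 and adjusted p = 0.257). Of 20 other channels, exchangers and connexins, 17 were higher and 2 lower in heart in the GFP libraries, and 17 and 3 in the F11 libraries. Of all genes tested, 36.8% were higher and 43.4% lower in heart in the GFP libraries, and 36.6% and 45% in the F11 libraries. For F11 in heart, 0.872% of all genes passed the threshold and 12.5% had an unadjusted p under 0.05 by edgeR. With F11 in heart, Atp1b1, a subunit of the sodium pump, was at 0.20 on the log2 scale (adjusted p = 0.0552). In adipose tissue none of these lists had a called gene for F11 against GFP by edgeR, and the 2 lowest p-values were those of Ryr2 (log2 −2.76) and Cacnb2 (−1.56), both cardiac genes held by L140 among the GFP libraries (adjusted p = 0.9996 each). A list of 15 factors (14 tested in heart) held those with known or possible action on cardiac potassium channel genes. Of these, 3 rose and 2 fell with F11 in heart (background 0.872% in either direction). Dbp, Tef and Hlf, which bind the D-box, rose by 0.94, 0.61 and 0.66 on the log2 scale (adjusted p = 0.000397, 0.000346 and 0.0283), and Arntl, which encodes BMAL1, and Clock fell by 1.68 and 0.40 (adjusted p = 0.000139 and 0.00167). Klf15, the gene of the factor known in mouse heart to act on Kcnip2, was at 0.28 on the log2 scale (adjusted p = 0.107), beside 0.13 for Kcnip2 itself. Some of these factors, but not each of them, are known in mouse heart to act on potassium channel genes. Of the 55 members 0 passed the threshold, against 0.872% of all genes, and whether the factors moved any member was not tested.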

How the data were processed

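RNA was sequenced from heart and white adipose tissue, and the deposited table holds estimated counts per gene, made by the authors with kallisto 0.46 on GRCm38.p6, per the submitters' processing notes, so 30.8% of its values are not whole. No source used here gives the annotation release or the treatment of strand. Groups come from the library titles. Counts were rounded, genes were filtered with filterByExpr, libraries were scaled by TMM, and edgeR 4.0.16 (R 4.3.3) gave robust quasi-likelihood tests with Benjamini-Hochberg adjustment over all genes tested and a threshold of 0.05. Tissue contrasts and the interaction used 1 fit over 29 libraries, and F11 against GFP was fitted in each tissue alone. SE is the absolute log2 fold change divided by the square root of F. Gene lengths are the union of GENCODE exons on GRCm38. Alternatives were DESeq2 1.42.0, limma 3.58.1 (voom with sample weights), other filters and scalings, and each library left out. Marker correlations used 100000 permutations, adjusted over all genes tested in the tissue. Scripts were tested on simulated data.

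Members are named where they are in the 10 highest per length, the 10 largest tissue differences either way or the 10 lowest p-values for F11 in a tissue, or on a channel list, which gave 48, of which 2 are not reported here, nor are 2 genes of other lists. Others (Kcna1, Kcna6, Kcne3, Kcnh3, Kcnh7, Kcnk1, Kcnk4, Kcnn1, Kcnt2) were named after their values were seen. The family and all lists were chosen with earlier results of these data known. No 2 libraries were duplicates, and all columns were mapped to a label.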

Additional observations from a re-analysis of the deposited data

Results flagged for a closer look

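Of 116 groups of 6 to 8 libraries with a mean of at least 1 CPM among the 46 named members, 16 held a library whose gap to its nearest neighbour, relative to the range of the group, passed Dixon's limit. Chance flags about 1 in 20 groups.

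The GFP adipose library L140, which holds cardiomyocyte transcripts, stood above its group for 4 cardiac genes, with 8.114 CPM of Kcnip2, 12.64 CPM of Kcnj11, 12.84 CPM of Kcnj3 and 10.45 CPM of Kcnj5.

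The F11 adipose library L142, which holds epididymal transcripts, stood above its group for 7 genes, with 9.4 CPM of Kcnc4, 3.333 CPM of Kcnd1, 8.989 CPM of Kcnip3, 5.093 CPM of Kcnj16, 7.453 CPM of Kcnk5, 2.809 CPM of Kcnma1 and 9.925 CPM of Kcnq1.

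A further 5 came from other libraries. Kcnj3 was at 237.2 CPM in the F11 heart L38, which had the highest atrial marker sum of the F11 hearts. Kcnq1 was at 41.97 CPM in the F11 heart L33. Kcnip3 was at 2.886 CPM in the GFP heart L5, and Kcnj14 at 2.421 CPM in the GFP heart L8, which was also rich in globin transcripts. Kcnmb1 was at 3.606 CPM in the GFP adipose library L138.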

How the results depend on the processing

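Over 4066 values of named members in 40 settings, 4006 kept their direction and their side of the threshold, 9 lost the call, 33 gained one and 18 changed sign. With 1 library left out, the GFP tissue contrast had 31 to 33 members higher and 20 to 24 lower in heart, the F11 contrast 30 to 34 and 19 to 24, and F11 against GFP in heart, in adipose tissue and their difference had 0 to 0. DESeq2 called 3 members for the difference between the tissues, where edgeR called 0. Sign changes in the tissue contrasts were those of Kcnc4 in the F11 libraries (3.15 with DESeq2, 3.33 with voom, 3.76 without L140 and L142 together, and −0.885 to 3.73 over the libraries left out), of Kcnip3 (0.159, 0.259 without both, and −0.302 to 0.219) and of Kcnip4 with total counts (−0.341). In the difference of the F11 effects, Kcnip2 (−0.0108 with voom, −0.107 without both, −0.389 to 2.46), Kcnj5 (−0.0857, −0.123, −0.501 to 2.47) and Kcne1 (−0.509 without both, −0.421 to 4.65) turned with L140. In adipose tissue Kcnd1 was at −0.0726 with voom and −0.0865 without both. The cause was not tested where no library is named. Kcnk5 and Kcnj16 in the F11 contrast lost their calls without L142, without both and with voom. With total counts, Kcnip4 and Kcnmb1 lost theirs (0.42 and 0.32 in the GFP contrast, 0.76 for Kcnmb1 in the F11 contrast). Kcnip4 in the F11 contrast (log2 0.64, adjusted p = 0.0516) gained the call without any of L31, L35, L38, L133, L137, L140, L141, L143 and L145, at an adjusted p of 0.0209 to 0.0483, and Kcnip3 in the GFP contrast without L142 (0.0243). No paired analysis was possible because the library numbers are not shared between groups.

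Depth limits the members under 0.170 CPM, which is 3 counts in the heart library with the smallest scaled total. Kcne1 (outside L140), Kcnj4 and Kcna4 lie there in adipose tissue. The adipose medians outside L140 of Kcnd2, Kcnj3, Kcnj11, Kcnj12 and Kcnv2 lie there as well. The tissue fold changes of these genes rest on few counts in most adipose libraries, so their size is imprecise. The spread between adipose libraries, 0.355 against 0.105 in heart, limits what F11 could show there.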
